A study of Drosophila melanogaster with 4 samples.

Results

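The gene nolo (no long nerve cord, listed as CG31619) was described here by its circular RNAs (circRNAs) in heads of the fruit fly Drosophila melanogaster. Its members are the rows of the deposited circRNA table whose name carries the symbol CG31619, and there were 15 of them among 2563 listed circles (0.585%). nolo was chosen by its number of listed circles, which 6 other host genes exceeded, so that number is a description and supports nothing further. The study sequenced ribosome-protected RNA fragments (footprints) from whole fly heads in 4 libraries, 2 from heads treated with a high detergent buffer and 2 from heads treated with a low detergent buffer. Not given in the sources used here are the flies' strain, sex and age. Per the labels' protocols, heads 3 and 4 were lysed frozen in a buffer with Triton X-100 and cycloheximide, a drug that halts ribosomes, whereas heads 1 and 2 followed an earlier published homogenization. The table's library columns are named by head number. The labels do not say which head numbers were the high detergent libraries and which the low detergent ones. Those columns were therefore not used, and high and low detergent were not compared. Each read number below is the authors' count over all samples, with no replicate error. They are read here as fragments spanning the junction of a circle, although the table itself does not say so.

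A circRNA forms when the splicing machinery joins the end of an exon backwards to its own start or to that of an exon upstream, which closes the RNA into a ring. Such rings lack free ends and tend to be long-lived, and fly heads, which are rich in neurons, are a common source of them. A ribosome that reads around a ring protects a fragment across the back-splice junction. A linear mRNA with its exons in genomic order does not hold that joined sequence. nolo encodes a secreted protein of the ADAMTS-like family, relatives of the ADAMTS metalloproteases that carry thrombospondin type 1 repeats but no protease domain and that sit in the extracellular matrix.

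The 15 nolo circles lay on chromosome 2L between positions 21688474 and 21728235 of the build dm3, and fell into 4 sets that did not overlap each other. The first set held 3 circles that all started at exon 3 and ended at exons 5, 6 and 7. A lone short circle lay in the intron between exons 7 and 8. The third set held 5 circles between exons 8 and 14, and the fourth held 6 circles that started at exon 15 or later and ended no further than exon 20. Exons are numbered here by the annotated transcript nolo-RC, 1 of 7 annotated for the gene, which has 20 exons. No listed circle spanned the intron between exons 7 and 8 or the intron between exons 14 and 15.

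**Figure D1:**
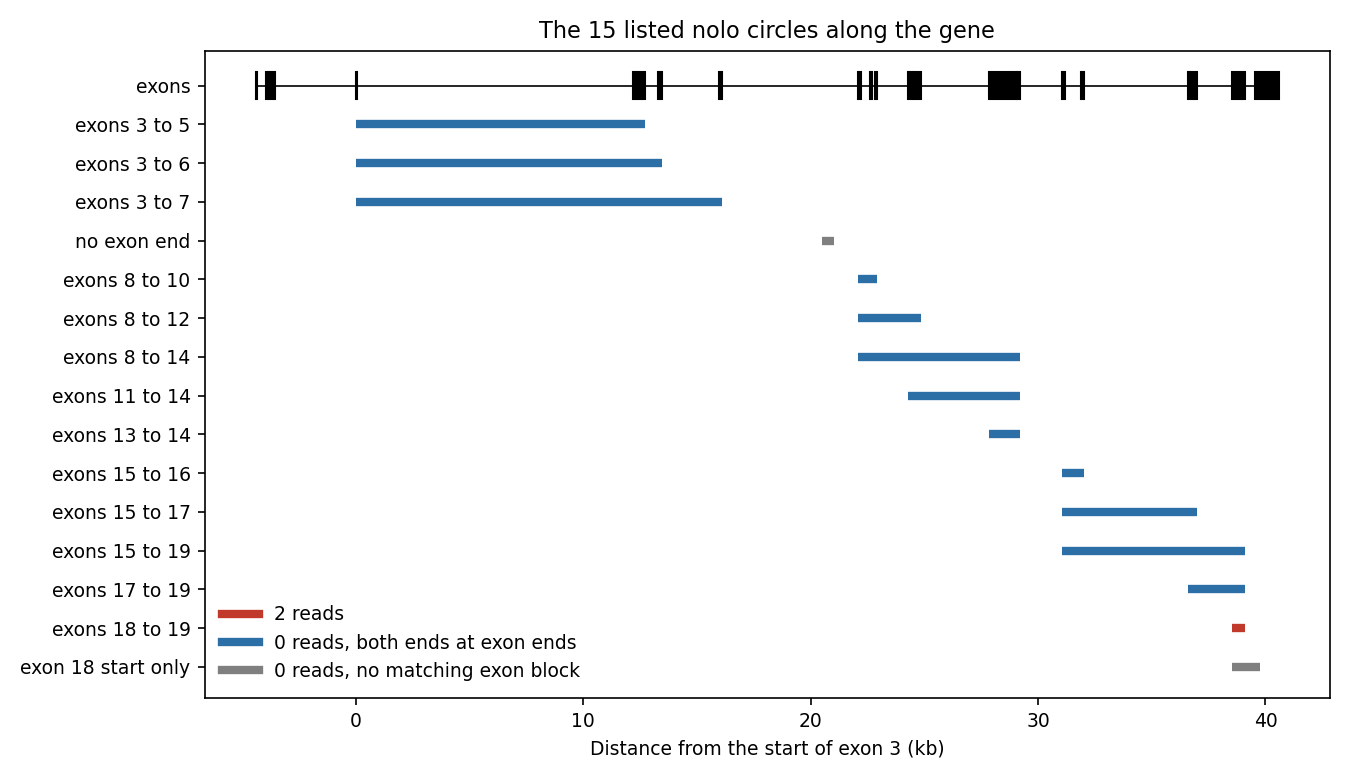
Each bar is 1 listed nolo circle, drawn to scale by its distance in kb from the start of exon 3, with the exons of transcript nolo-RC as black boxes on the top line. The 15 circles form 4 sets without overlap, and the 1 circle with reads (2 over all samples) is the short one of exons 18 to 19 near the end of the gene.

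Of the 15 spans, 13 (86.7%) equalled in length an exon block, which is 1 exon or a run of neighbouring exons of a transcript with the introns between them, and over all 2563 listed circles 76.1% did. The annotation was of a newer build than the table, so lengths and not positions were compared. For each of these 13 circles a single block of the gene matched, and the distances between their starts and ends equalled the distances between the exons in all 13. Distances were counted from the first of the 13 along the gene, so that circle agreed by definition. The 13 are called by their first and last exon below. All of them held more than 1 exon, whereas 366 of 1905 other circles with a single matching block (19.2%) held 1 exon alone. The median number of exons held was 3 in nolo and 2 in those other circles.

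Starts of circles were reused more often than ends. The 15 circles had 8 distinct starts and 11 distinct ends. The starts of exons 3, 8 and 15 served 3 circles each and the start of exon 18 served 2, so 4 starts accounted for 11 circles. The starts of exons 11, 13 and 17 served 1 circle each. Among ends, those of exons 14 and 19 served 3 circles each, and every other end was used once. In all, 14 of the 15 circles shared a start or an end with another nolo circle, while 45.6% of all listed circles shared one with another listed circle. A gene with many listed circles has more chances to share ends, and nolo was chosen for its number of circles, so nothing is read from that difference. The circles of exons 8 to 14, exons 15 to 19 and exons 18 to 19 shared both their start and their end.

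**Figure D2:**
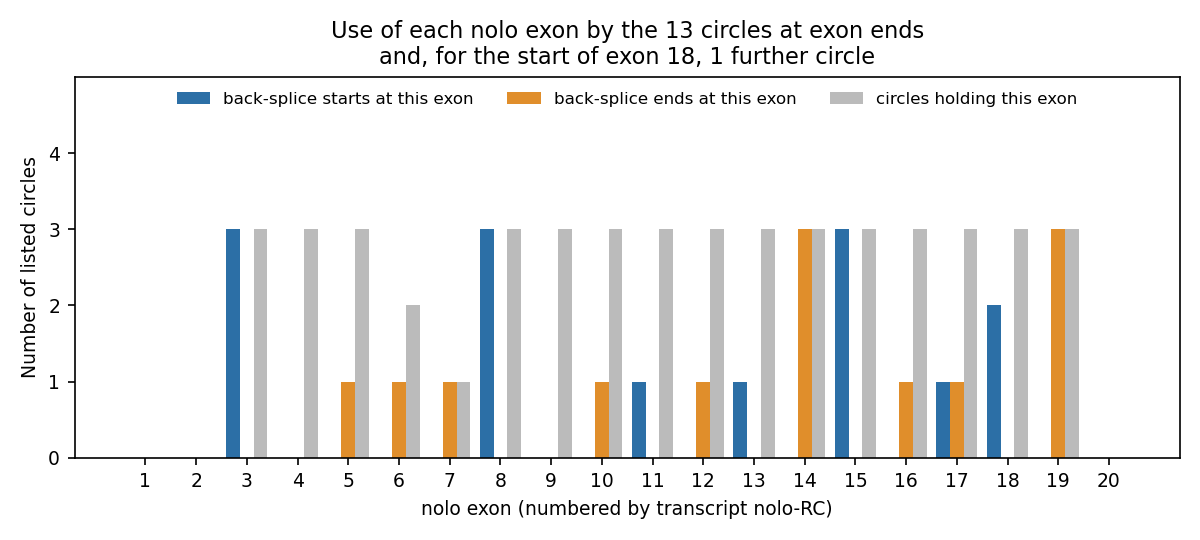
For each nolo exon (horizontal axis, numbered by transcript nolo-RC), the bars count listed circles that start at it, end at it, or hold it. Holding is counted over the 13 circles at exon ends only. The start bar of exon 18 also includes the circle that ends inside exon 20. Starts pile up on exons 3, 8 and 15 with 3 circles each and ends on exons 14 and 19 with 3 each, while exons 1, 2 and 20 are not held by any of the 13 circles at exon ends.

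The 3 circles of the first set were the longest on the genome and the only ones among the 13 at exon ends to hold the annotated start codon, which lies in exon 3. The circle of exons 3 to 5 ran from 21688474 to 21701180, a span of 12707 bp, introns included. That of exons 3 to 6 spanned 13465 bp and ended at 21701938, and that of exons 3 to 7 spanned 16130 bp, the longest of the 15, and ended at 21704603. Most of each span was the intron of 12119 bp between exons 3 and 4. With introns removed these circles measured 516, 691 and 836 nt, between 4.06% and 5.18% of their spans. Exons 3, 4 and 5 were held by all 3 circles, exon 6 by 2 and exon 7 by 1. All 7 annotated transcripts contain each of these blocks.

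The third set covered exons 8 to 14 with 5 nested or overlapping circles. From the start of exon 8 at 21710564, circles ended at exon 10 (847 bp), exon 12 (2745 bp) and exon 14 (7109 bp). The other two ended at the same point as the last of these, at the end of exon 14 at 21717672, and started at exon 11 (4904 bp) and at exon 13 (1348 bp). Each of exons 8 to 14 was therefore held by exactly 3 circles. Of the 13, that of exons 8 to 14 had the longest RNA, with 7 exons and 2089 nt after removal of introns, or 2068 nt in nolo-RG, whose exon 11 is shorter. The circle of exons 13 to 14 was nearly all exon, since 1281 nt of its 1348 bp remained after splicing. It is made mostly of exon 13, the longest exon of nolo-RC at 1169 nt. Exons 11 to 14 formed a circle that began at the exon 11 start found in 6 transcripts, and no listed circle began at the one that nolo-RG uses.

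The fourth set covered exons 15 to 19, in nolo-RC again with 3 circles on each exon, plus 1 circle that ran into exon 20. From the start of exon 15 at 21719514, circles ended at exon 16 (968 bp), exon 17 (5932 bp) and exon 19 (8060 bp). Of the 13, that of exons 15 to 16 had the shortest RNA, at 253 nt. It was also the 1 nolo circle listed with the accession NM_001259199, while the other 14 carried NM_165396. Exon 16 is present in 4 of the 7 transcripts, and nolo-RD has a shorter exon 17, so the makeup of the next 2 circles depends on the transcript. With exons 15 to 17 the circle would measure 631, 613 or 508 nt, and that of exons 15 to 19 would measure 1139, 1121 or 1016 nt. The table gives only the ends of a circle and not the exons inside it. The remaining circles at exon ends were exons 17 to 19 (21725068 to 21727573, 2506 bp, 886 nt) and exons 18 to 19 (21727006 to 21727573, 568 bp, 508 nt).

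Footprint reads fell on 1 of the 15 nolo circles, or 6.67%, and 4.76% of all listed circles had a read. This was the circle of exons 18 to 19, with 2 reads over all samples (95% exact Poisson interval 0.242 to 7.22). The other 14 had 0 reads, including the 2 other circles that end at the same place and the 1 that starts at the same place. The 2 reads were 0.870% of the 230 reads in the table (exact binomial interval 0.105% to 3.11%). For the circles at 0, a true share as high as 1.30% (3 of 230 reads, the limit set for a count of 0) is compatible with their count. The 95% exact Poisson interval for a count of 0 reaches higher, to 3.69 reads. The nolo circle with 2 reads therefore lies within what its neighbours' counts of 0 allow, and no order among the 15 circles is resolved at this depth. Among all listed circles, 6 had more than 2 reads, 20 including this one had exactly 2, and 96 had 1. These intervals and this limit cover counting error only. No interval is given for the share of circles with a read, since circles that share a start or end are not independent.

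The circle with reads has no annotated start codon, and all of its 508 nt are coding sequence in transcript nolo-RC. It is also compact, because the intron inside it is only 60 bp long and the exons make up 89.4% of the span. By length, 508 nt is not a multiple of 3, leaving 1 base over, so a ribosome crossing the back-splice junction would change reading frame. The 2 reads do not tell which frame was read, or whether the junction was crossed by an elongating ribosome.

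Across the 13 circles at exon ends, 2 had a spliced length that is a multiple of 3 (15.4%), against 686 of 1905 other circles with a single matching block (36.0%). These were the circle of exons 3 to 5 (516 nt, or 172 codons) and the circle of exons 13 to 14 (1281 nt, or 427 codons). Both had 0 reads. Of the other 11 circles, those of exons 3 to 6, 8 to 12, 8 to 14, 15 to 16, 15 to 17, 17 to 19 and 18 to 19 left 1 base over. Those of exons 3 to 7, 8 to 10, 11 to 14 and 15 to 19 left 2 bases over. For blocks that differ between transcripts, the remainder was the same for every annotated length. Circles that share a start or end are not independent of each other, and no test of this share was made.

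The introns that border the back-splice points were mostly long ones. Among the 19 introns of nolo-RC, the 7 that precede a circle start ranged from 1358 to 5960 bp with a median of 3016 bp, and the other 12 ranged from 60 to 12119 bp with a median of 393 bp. Of those 12, only 2 reached the shortest of the 7, namely the 12119 bp intron before exon 4 and the 2520 bp intron before exon 7. The 9 introns that follow a circle end had a median of 1841 bp (454 to 5960 bp). The other 10 had a median of 259 bp (60 to 12119 bp), and 3 of them reached the shortest of the 9. 6 introns had both an end before them and a start after them, namely those before exons 8, 11, 13, 15, 17 and 18. The shortest introns, of 60 to 131 bp, all lay inside circles. Long bordering introns were found elsewhere in the table too. The median intron before the first exon was 3562 bp over the 13 nolo circles and 3852 bp over 1903 other circles, and after the last exon it was 1841 and 2285 bp. These medians are over circles, so an intron that borders several circles counts for each. The median over all 14550 annotated introns of the hosts of circles at exon ends, a different measure, was 690 bp.

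**Figure D3:**
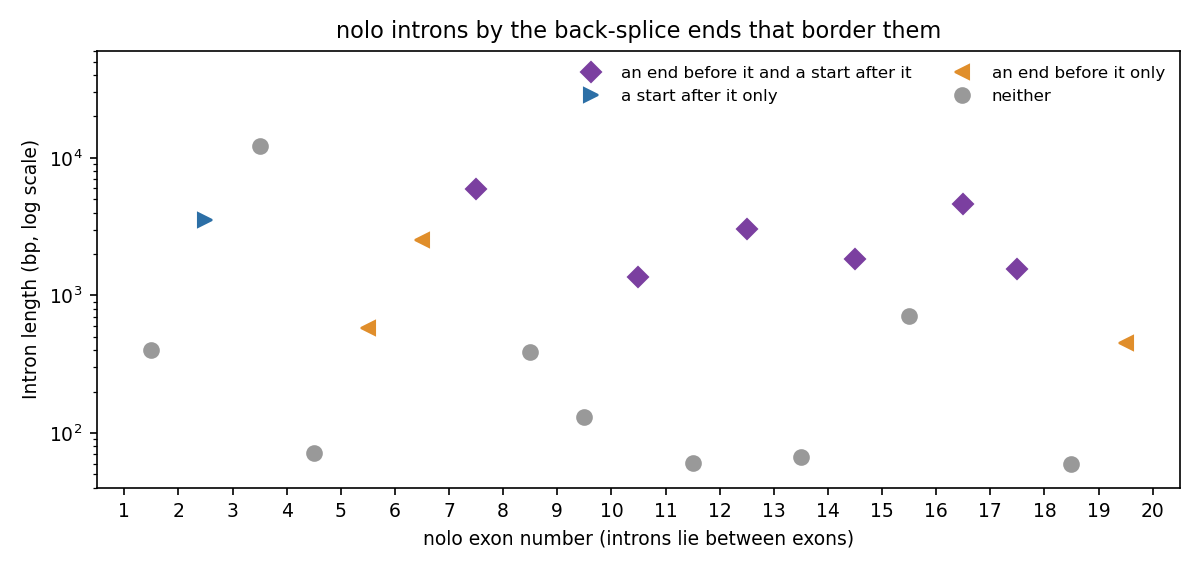
Each point is 1 of the 19 introns of transcript nolo-RC, placed between the exons it separates, with its length in bp on a log axis and a marker for the back-splice ends that border it. The 6 introns with an end before and a start after them lie between 1358 and 5960 bp, and the 12119 bp intron between exons 3 and 4 borders no listed back-splice end.

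The annotation places 26 transposable elements inside introns of nolo, 18 of them copies of INE-1, a short and very numerous fly element. Of the 10 introns that border a back-splice point, 8 held an element, against 2 of the other 9. The exceptions among the 10 were the introns between exons 5 and 6 and between exons 16 and 17. The most elements, 6, lay in the 12119 bp intron between exons 3 and 4, which borders no back-splice point. The 10 bordering introns were also longer, with a median of 2180.5 bp against 131 bp for the other 9. The part of length or of elements in the position of circle ends was not tested.

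A pair of circles did not match an exon block. The first ran from 21708987 to 21709485 (499 bp), the shortest of the 15. By distances from the matched circles both of its ends lay in the 5960 bp intron between exons 7 and 8, 4383 bases past exon 7 and 1078 bases before exon 8. It started 13 bases after one annotated INE-1 copy, ended 286 bases before the next, and overlapped none. It shared no start or end with another nolo circle. The second ran from 21727006 to 21728235 (1230 bp). It started at exon 18, like the circle with reads, and ended inside exon 20, the last exon, after the first 208 of its 1024 bases. That end lies 62 bases past the stop codon of nolo-RC. With introns removed its exons would measure 716 nt. Both circles had 0 reads.

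The span of the 15 circles had a median of 2745 bp and ranged from 499 to 16130 bp, a 32.3-fold range within 1 gene, and the median of the 2548 other listed circles was 1037.5 bp. The nolo median was 4904 bp over the 13 circles at exon ends and 1158 bp when each start counted once by its shortest circle. Introns made up most of this range. The spliced lengths of the 13 circles ran from 253 to 2089 nt with a median of 808 nt, and the median of 1905 other circles was 654 nt.

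Among the 13 other host genes with at least 10 listed circles, the ones most like nolo in distinct starts and ends per circle were CG32264, Cadps, and, tied, dlg1 and para. nolo had 0.533 distinct starts and 0.733 distinct ends per circle. The 10 circles of CG32264 had 6 starts and 7 ends. Cadps, which encodes an activator of dense-core vesicle release, had 6 starts and 9 ends over 13 circles. dlg1, a scaffold protein of synapses and septate junctions, and para, the voltage-gated sodium channel, each had 7 starts and 8 ends over 11 circles. No listed circle of these 4 genes had a footprint read, and 4.76% of all listed circles had one. This likeness is of counts over circles within 1 table, and says nothing about the genes themselves.

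The 13 hosts as a group had a median of 0.462 distinct starts per circle (0.389 to 0.8) and 0.647 distinct ends per circle (0.471 to 0.783). The most used start served 3 circles in nolo, 3 in CG32264 and dlg1, 4 in para and 6 in Cadps, and at most 8, in pan (a Wnt pathway transcription factor) and mbl (the splicing regulator muscleblind). The circles of these hosts formed between 1 and 3 sets without overlap, and the nolo circles formed 4, 1 of them the lone intronic circle. The share of circles that matched an exon block was 86.7% at nolo (13 of 15), below the median of 92.3% over the 13 hosts. It was 100% at CG32264, dlg1 and para, 92.3% at Cadps, and 0% at the lower end, at eEF2 and eEF1alpha1, both translation elongation factor genes. Of the 13 hosts, with 10 to 23 listed circles each, 5 had a footprint read on any listed circle and 8 had 0. Over all listed circles 4.76% had a read, and nothing is read from the number of hosts.

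**Figure D4:**
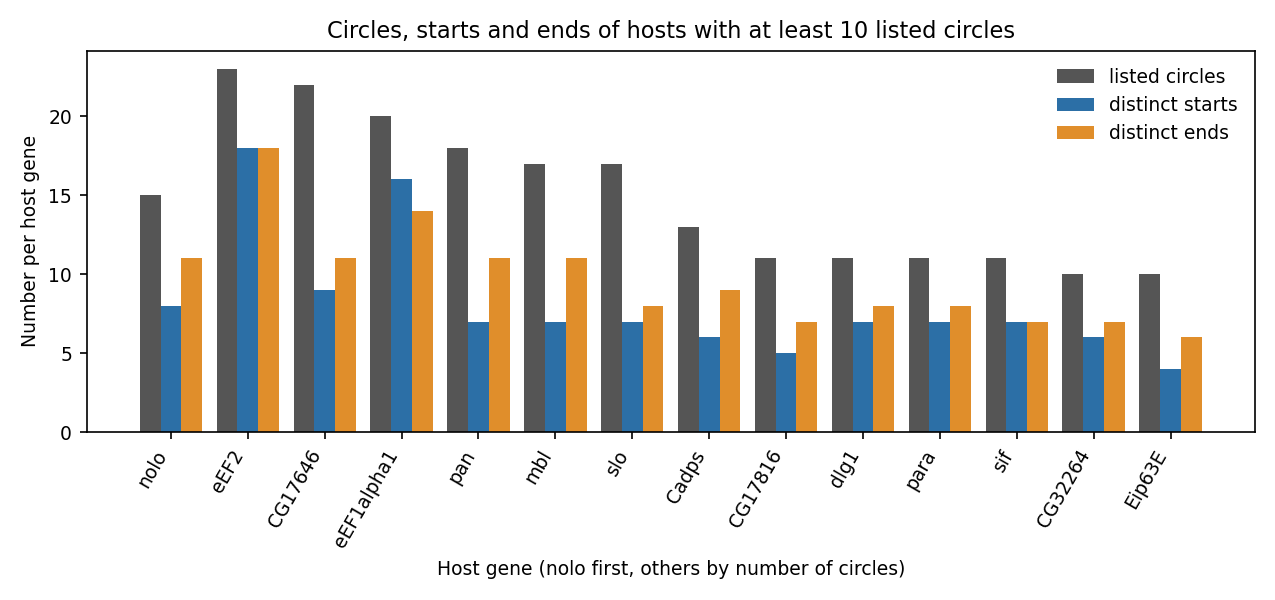
For nolo and the 13 other host genes with at least 10 listed circles, the bars give the number of listed circles, distinct starts and distinct ends in the direction of transcription. nolo has 15 circles on 8 starts and 11 ends, and eEF2 has 23 circles on 18 starts and 18 ends.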

How the data were processed

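Footprint libraries of fly heads (2 high detergent, 2 low detergent) were summarised by the authors in 1 table of circRNAs. The deposited read counts over all samples are whole numbers, not normalized, and sum to 230. The build dm3 and cutadapt 1.9.1 are named, per the submitters' processing notes. Per the file headers, ribosomal RNA reads had been removed. Not given in the sources used here are the aligner, the circRNA caller and the reason circles with 0 reads are in the list. Left out were the 4 columns of single libraries.

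The first coordinate was raised by 1 so that positions count from 1. If instead the second coordinate lies 1 base past the end, both positions are 1 base too high. Of the accessions, 98.7% matched a current gene in NCBI's release 6 table, used for names only. The 64 circles with no symbol took the gene of their accession. Spans were compared by exact length with exon blocks from Ensembl release 115 (BDGP6), with a gene model for 2557 circles. Where transcripts differed, the one with most exons in the block was used. Overlapping genes could share a circle. Intervals are 95% exact Poisson or Clopper-Pearson, and the limit for a count of 0 is 3 reads. No hypothesis test was made. Software was numpy 2.4.6, pandas 2.3.3, scipy 1.17.1 and Python 3.11.15.

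nolo, the lists and the alternatives were chosen with earlier results of these data known. All 15 circles are accounted for, and other hosts are named if they have at least 10 listed circles or are among the most alike by distance in distinct starts and ends per circle. The comparisons of intron length, transposable elements, sets without overlap and exon number were added after the values were seen.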

Additional observations from a re-analysis of the deposited data

How the results depend on the processing

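Alternatives were run for the numbers of circles, reads, starts and ends, the median span, the match to exon ends and the spliced lengths. The intron lengths, transposable elements, sets without overlap and comparisons with other hosts had none. Taking nolo by accession gave the same number of circles, 15, and of reads, 2. Requiring at least 2 reads left the same 1 circle. Counting starts or ends within 10 bases of each other as 1 gave 8 starts and 11 ends, as before, and restricting to circles at exon ends, an alternative chosen after the data were seen, gave 7 and 9. Allowing 3 bases of difference, or any exon start with any exon end of the gene, left 13 circles at exon ends, and using the transcript with fewest exons left 2 circles with a length that is a multiple of 3. The median span of 2745 bp moved to 4904 bp over circles at exon ends and to 1158 bp with 1 circle per start. With 15 circles, of which 14 share a start or end, the median depends on which circles are counted. No paired analysis was possible because reads were taken from a single total over the 4 libraries. Leaving out a library was not tried, since the columns of single libraries were not used. With 230 reads in all, no order among the nolo circles is resolved.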
